A study of Mus musculus with 7 samples.

Results

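The genes described here are the sensors and transcription factors of the unfolded protein response, measured in memory B cells (MBCs) and plasma cells (PCs) of the mouse spleen. They are 10 of the 48795 genes in the expression table and were chosen by name: Ern1 and Xbp1 of the IRE1 branch, Atf6 and Atf6b of the ATF6 branch, Eif2ak3, Atf4, Ddit3, Trib3 and Ppp1r15a of the PERK branch, and Creb3l2, a related membrane-bound factor of the CREB3 family. The 7 RNA sequencing libraries came from C57BL/6 wild type females aged 8 to 12 weeks, all injected intravenously with sheep red blood cells and taken on day 10, so no library from unimmunised mice was part of the comparison. The 3 MBC libraries held splenic cells sorted as B220+ CD38+ CD273+ with no CD138 or IgD at the surface, and the 4 PC libraries held cells sorted as B220lo CD138+ with no IgD. The labels do not say how many mice or cells went into a library.

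The unfolded protein response adjusts the folding capacity of the endoplasmic reticulum to its load of newly made protein. IRE1, encoded by Ern1, cuts a short intron out of Xbp1 mRNA in the cytoplasm so that the active factor XBP1s can be made. ATF6 is carried to the Golgi and cut there to free a transcription factor, and PERK, encoded by Eif2ak3, phosphorylates the translation factor eIF2α, which slows general translation and favours that of Atf4. Plasma cells are known to need XBP1 for full antibody secretion. Transcript levels per gene were measured here. The cutting of Xbp1 mRNA, the cleavage of ATF6 and the phosphorylation of eIF2α were not measured.

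The stretch of Xbp1 mRNA that IRE1 cuts is shown because it defines what the gene-level value cannot separate. In the reference transcript Xbp1-201, of 2129 bases, a 26-base intron at transcript bases 818 to 843 lies in the coding part of exon 4, on the + strand of GRCm38 at chr11:5524282-5524307. The 98 bases around it, from chr11:5524246-5524343, follow with the 26 excised bases in capitals.
Xbp1: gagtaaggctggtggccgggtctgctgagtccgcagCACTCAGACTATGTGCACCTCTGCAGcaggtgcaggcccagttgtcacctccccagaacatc
The reading frame of this transcript encodes 267 residues with the 26 bases kept and 371 with them removed. Each Xbp1 value below sums both forms, since the table gives a single level per gene.

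Promoters of 3 kinds of target genes were searched for the motifs known for these factors, on both strands, in the 300-base window from 250 bases before to 50 after the start of each of 32851 RefSeq genes (GRCm38.p6). The motif of the endoplasmic reticulum stress response element (ERSE, bound by ATF6 and XBP1 with NF-Y) was searched as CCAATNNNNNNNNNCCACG, that of XBP1 and ATF6 (UPRE) as TGACGTGG, and that of ATF4 (CARE) as TGATGCAA. ERSE ends in the letters with which UPRE begins when read on the other strand, so these motifs can overlap. ERSE stood in 39 of all promoters (0.119%), in 3 of 7 promoters of listed XBP1 targets and in 4 of 8 of listed ATF6 targets. CARE stood in 294 of all promoters (0.895%) and in 5 of the 13 listed PERK-ATF4 targets, as well as in Herpud1. Of those 5 targets only Chac1 was high enough in these libraries to be tested. UPRE stood in 222 promoters (0.676%), none of them of a listed target, and none of the 9 members with an entry in the promoter table held any of the 3. The windows below show ERSE, in capitals, beside the genes whose levels are given further on, and CARE in the promoter of Chac1, each printed along the strand of its gene.
Hspa5, chr2:34772013-34772055, + strand: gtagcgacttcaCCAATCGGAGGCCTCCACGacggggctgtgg
Creld2, chr15:88819508-88819550, + strand, motif reversed: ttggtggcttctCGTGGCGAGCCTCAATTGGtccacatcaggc
Dnajc3, chr14:118937815-118937857, + strand: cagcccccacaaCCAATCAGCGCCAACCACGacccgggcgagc
Syvn1, chr19:6046520-6046562, + strand: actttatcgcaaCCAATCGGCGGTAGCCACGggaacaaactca
Chac1, chr2:119351037-119351068, + strand, motif reversed: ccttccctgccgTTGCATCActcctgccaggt
Hsp90b1 held ERSE at 2 places of its window, and Calr and Pdia6 at 1 each. A match is a description of the letters and was not tested as a binding site. The motifs and the listed targets were both taken as known for these factors, so the shares above are not independent evidence.

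Levels are given as scaled TPM. TPM gives the number of transcripts of a gene, per unit of its length, in a fixed total per library, so genes can be compared with each other, and each library was then divided by its median ratio to the mean library, since immunoglobulin genes took 49.4 to 55.9% of the TPM in PCs and 1.65 to 3.16% in MBCs. Mitochondrial genes took 19.7 to 33.5% in MBCs and 8.10 to 9.80% in PCs, and the part of this difference in the results below was not tested. Differences are PC minus MBC in log2(scaled TPM + 1), which understates the change of low genes, and were tested with limma over 11573 genes. A gene passed at a Benjamini-Hochberg adjusted p under 0.05. In all, 742 genes (6.41%) were called higher and 248 (2.14%) lower in PCs, with a median of 0.14 over all genes tested. Without scaling the counts were 474 (4.10%) and 3026 (26.1%) and the median was -0.91, and with quantile normalization they were 675 and 460. In bulk RNA, fewer cells that express a gene and less of its RNA per cell cannot be told apart.

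The sorted populations carried their defining markers, with exceptions. The summed scaled TPM of the 4 PC markers (Sdc1, Prdm1, Irf4 and Jchain) was 7985 to 13530 in PCs and 74.1 to 150 in MBCs. The B cell gene Ms4a1 stood at 208 to 419 scaled TPM in MBCs and 42.1 to 66.0 in PCs, and Pax5 at 138 to 789 in MBCs and 16.1 to 48.3 in PCs. MBC 3 stood apart from MBCs 1 and 2. It held Cd38 at 6.77 scaled TPM against 130 and 186, and Pdcd1lg2, which encodes CD273, at 2.59 against 43.3 and 24.5. The summed germinal center markers reached 630.5 there against 244 and 263, with 60.3 to 125.5 in PCs. The proliferation markers summed to 789 in MBC 3 against 154 and 184, and PCs lay between, at 430 to 559. MBC 2 held 2897 scaled TPM of erythroid genes, where the other libraries held 0.32 to 72.6. T cell markers summed to 12.8 to 23.7 in PCs and to 0 to 23.8 in MBCs. The MBC sums were nearly all Lck, at 14.3 in MBC 1 and 22.95 in MBC 3, against 0.629 to 5.03 in PCs. Cd3e passed as higher in PCs (log2 difference 3.17, limma adjusted p = 0.0081). Cd4 was untested, at 0.362 to 6.42 scaled TPM in PCs and at most 0.112 in MBCs. The untested Cd3d and Cd3g were above every MBC in 3 of 4 PCs, and Cd8a was at 0 in 3 of 4 PCs. The myeloid sum was 23.2 to 30.7 in PCs and 5.73 to 40.2 in MBCs, and the platelet sum at most 4.58. The part of these cells in the results was not tested, and the differences of the 9 tested genes, the counts in the lists of targets and the ratios are also given without MBC 3. Ighd, whose product was absent from the surface in both sorts, stood at 85.8, 39.9 and 9.55 scaled TPM in MBCs and 14.2 to 38.8 in PCs.

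Of the 10 genes, 9 were high enough to be tested, and 6 of those rose in PCs, where 6.41% of all genes tested did. The 6 were Ern1, Xbp1, Atf6, Atf4, Ddit3 and Creb3l2. None fell. A gene was tested if it reached 1 TPM as deposited in 3 or more libraries. Ern1, Ddit3 and Creb3l2 reached this in fewer than 3 MBCs, so they entered the test only through their PC values. Without MBC 3, 8 of the 9 rose, with Atf6b and Ppp1r15a added, where 1626 of 10748 genes (15.1%) did. Eif2ak3 passed in neither case. The lowest PC lay above the highest MBC in scaled TPM for 8 of the 9 tested genes, all but Eif2ak3, and for 13.0% of all genes tested (8.68% were apart in the other direction). With TPM left unscaled this held for 2 of the 9, Xbp1 and Creb3l2, and for 4.88% of all genes tested. The untested Trib3 was also apart in scaled TPM, on a few reads. The 6 calls were unequal in strength. Xbp1 and Creb3l2 passed under each of the 17 other settings tried, Ern1 under 12, Atf4 under 9, Atf6 under 7 and Ddit3 under 3. The sample titles carry codes of 2 prefixes, whose meaning the labels do not give, and each of the 3 MBCs shares a full code with a PC. The main fit did not use these codes. With the full code as a block 4 of the 9 genes passed, where 434 of 11573 were called higher. Atf6 (limma adjusted p = 0.0722) and Ddit3 (0.158) then lost their calls. Within the 5 libraries of the prefix that most share (MBCs 1 and 2, PCs 1 to 3), the log2 difference was 3.65 for Ern1 (limma adjusted p = 0.0506), 3.85 for Xbp1 (0.0013) and 6.04 for Creb3l2 (0.0013), and 4 of the 9 genes passed, where 1014 of 10250 (9.89%) were called higher. The other prefix holds MBC 3 and PC 4 alone.

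**Figure D1:**
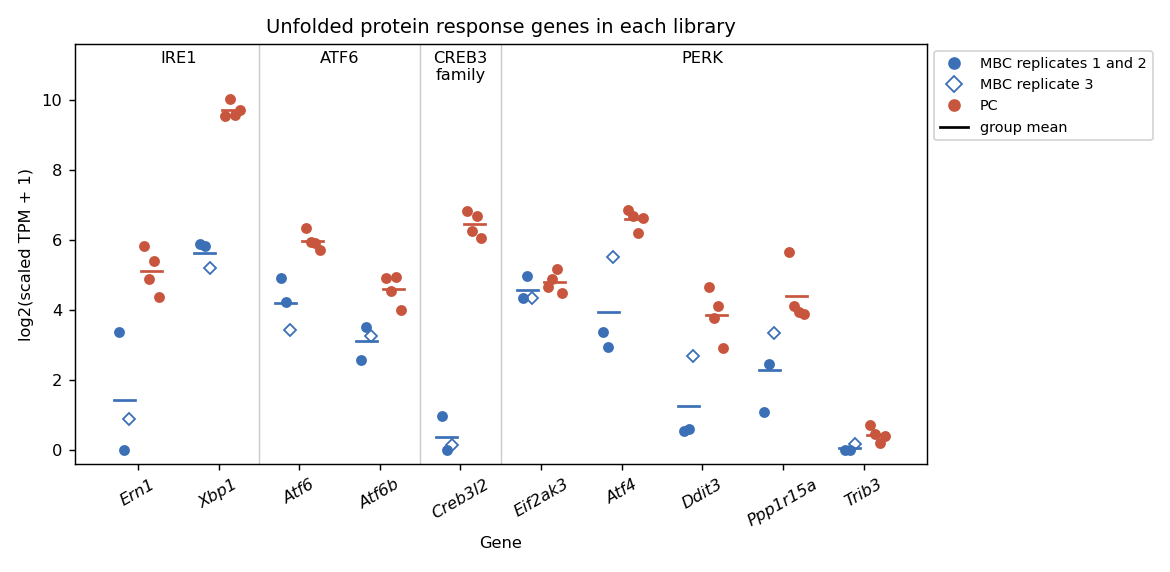
Level of each of the 10 genes in each library, as log2(scaled TPM + 1) on the vertical axis, with genes grouped by branch along the horizontal axis and 1 point per library (3 MBC, 4 PC), an open diamond for MBC 3 and a line at the mean of each population. Xbp1 had the highest mean in both populations, although Atf4 stood above it in MBC 3. Creb3l2 went from at most 0.971 scaled TPM in MBCs to at least 65.5 in PCs. The points of the populations mix for Eif2ak3 alone.

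In the IRE1 branch both genes rose. Ern1 (ENSMUSG00000020715, chr11:106394650-106487852, - strand) encodes the sensor itself, a kinase and endoribonuclease of the endoplasmic reticulum membrane. It stood at 9.41, 0 and 0.843 scaled TPM in MBCs 1, 2 and 3, and at 56.0, 28.4, 41.6 and 19.9 in PCs 1 to 4. The MBCs differed widely among themselves, and the lowest PC was still above the highest MBC. About 728 reads were estimated behind the value of MBC 1 and 135 behind that of MBC 3, while 3 reads would have given 0.0642 TPM in MBC 2, where Ern1 was listed at 0. The log2 difference was 3.71 (SE 0.77, limma adjusted p = 0.0167), and 3.36 without MBC 3 (adjusted p = 0.0279 by limma). It was 4.59 without MBC 1 and 2.95 without MBC 2, and the call was lost without PC 1 (limma adjusted p = 0.0579) or PC 3 (0.0604). The paralog Ern2, known from epithelia, was listed at 0 in 6 of the libraries and at 0.0146 scaled TPM in MBC 3.

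Xbp1 (ENSMUSG00000020484, chr11:5520659-5525893, + strand) is the substrate of the IRE1 nuclease and the factor of this branch. Its level was 58.3, 56.0 and 35.9 scaled TPM in MBCs 1 to 3, against 751, 1041, 756 and 843 in PCs 1 to 4. Each PC was far above each MBC, and the spread within a population was small beside the gap. The ratio of the means was 16.9, and the log2 difference 4.07 (SE 0.31, limma adjusted p = 5.8e-05). Without MBC 3 it was 3.85, and all 17 other settings gave 2.76 to 4.17. At least 11053 reads were estimated behind each PC value and at least 1102 behind each MBC value. The 5 genes whose log2 levels followed those of Xbp1 most closely over the 7 libraries were Hsp90b1 (Pearson r 0.997), Srprb, Stt3a, Hspa13 and Ergic1 (r 0.995 to 0.996), known as a chaperone, a receptor subunit for the signal recognition particle, a subunit of oligosaccharyl transferase, a chaperone and a trafficking protein. For Ern1 these genes were Zdhhc14 (r 0.992), Vps26b, Tns3, Snd1 and Faah. These correlations describe 7 libraries of 2 populations and carry no test.

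The 8 listed XBP1 targets were all tested and all 8 rose, against 6.41% of all genes tested, with a median log2 difference of 3.03. The 8 also rose without MBC 3 (15.1% of all genes tested), and 5 did with TPM left unscaled (4.10%). Many of these genes also respond to ATF6, so the split between both lists follows common usage. Dnajc3, the co-chaperone P58IPK whose ERSE is shown above, had the largest difference, 3.56 (SE 0.29, limma adjusted p = 9.1e-05). Dnajb9, the co-chaperone ERdj4, stood at 9.92, 32.3 and 4.72 scaled TPM in MBCs and at 127 to 162 in PCs. Its difference was 3.52 (SE 0.54, limma adjusted p = 0.0031). Syvn1, the ubiquitin ligase HRD1, had the smallest, 1.61 (SE 0.34, limma adjusted p = 0.0187), from 90.5 to 194 scaled TPM in MBCs and 336 to 391 in PCs.

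Among 8 listed genes that process the sensors, bind them or complete the splicing of Xbp1, none passed in either direction, and the median difference was -0.07. With TPM left unscaled 3 of the 8 were called lower, against 26.1% of all genes. Ddx1, a helicase of the tRNA ligase complex, had the largest value, 1.67 (SE 0.76, limma adjusted p = 0.214). It stood at 8.52, 1.82 and 38.8 scaled TPM in MBCs and 25.7 to 37.0 in PCs, and without MBC 3 it passed, at 2.62 (limma adjusted p = 0.0117). Rtcb, the ligase that joins the cut ends of Xbp1 mRNA, had the smallest, -0.81 (SE 0.35, limma adjusted p = 0.189). Its values were 52.1 to 67.2 scaled TPM in MBCs and 22.2 to 41.6 in PCs and did not overlap. Of 5 transcripts known as substrates of IRE1-dependent decay, 2 were tested and neither passed. Bloc1s1, the best known of them, was at 0, 0.290 and 24.1 scaled TPM in MBCs and 5.83 to 27.5 in PCs. Its difference was 2.29 (SE 1.07, limma adjusted p = 0.225), and 3.66 (limma adjusted p = 0.0074) without MBC 3. Hgsnat had a difference of 0.41 (SE 0.49, limma adjusted p = 0.657), and Scara3, Sparc and Col6a1 were listed at 0 in every library.

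In the ATF6 branch, Atf6 rose and its paralog Atf6b missed the threshold. Atf6 (ENSMUSG00000026663, chr1:170704674-170867771, - strand) encodes the membrane-bound precursor. It stood at 29.1, 17.7 and 9.76 scaled TPM in MBCs and at 80.3, 60.0, 59.1 and 51.4 in PCs, and the populations did not overlap. The ratio of the means was 3.32 and the log2 difference 1.79 (SE 0.42, limma adjusted p = 0.0278). Without MBC 3 it was 1.40 (adjusted p = 0.0241 by limma). Leaving out any other single library but MBC 1 ended the call, with limma adjusted p of 0.0590 (MBC 2), 0.0785 (PC 1), 0.0857 (PC 2), 0.0754 (PC 3) and 0.0661 (PC 4). Atf6b (ENSMUSG00000015461, chr17:34647146-34655074, + strand), a weaker and slower activator in other cells, stood at 5.01, 10.4 and 8.52 scaled TPM in MBCs and at 28.9, 22.1, 30.0 and 14.9 in PCs. These values did not overlap either. The difference was 1.48 (SE 0.44, limma adjusted p = 0.0728), and 1.53 without MBC 3, which passed (limma adjusted p = 0.0458).

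All 10 listed ATF6 targets rose, against 6.41% of all genes tested, with a median log2 difference of 4.22. All 10 did so under each of the 16 other settings run for this count. Hspa5, the chaperone BiP, which holds the sensors inactive in unstressed cells, stood at 189, 167 and 202 scaled TPM in MBCs and at 2025, 1914, 2269 and 1921 in PCs. The populations were far apart, with a difference of 3.45 (SE 0.28, limma adjusted p = 9.1e-05). Creld2, a secreted disulfide isomerase, had the largest value of the list, 6.52 (SE 0.68, limma adjusted p = 3.1e-04), from 0.0768, 4.55 and 10.4 scaled TPM in MBCs to 316 to 428 in PCs. Sel1l, the partner of HRD1 in degradation, had the smallest, 3.16 (SE 0.29, limma adjusted p = 1.6e-04). These targets make up much of the folding machinery that a secreting cell carries.

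Creb3l2 changed more than any other of the 10 genes. Creb3l2 (ENSMUSG00000038648, chr6:37327255-37442146, - strand) encodes a factor that is cut and released from the membrane in the manner of ATF6, and is known for driving genes of the secretory route. It stood at 0.971, 0 and 0.112 scaled TPM in MBCs 1 to 3, and at 112, 75.6, 101 and 65.5 in PCs 1 to 4. It was low in every MBC and in the range of Atf4 in PCs. About 76.7 reads were estimated in MBC 1, 18.3 in MBC 3 and at least 5234 in each PC, and a library with 3 reads would have read 0.0629 TPM in MBC 2. The log2 difference was 6.08 (SE 0.44, limma adjusted p = 5.4e-05), and 5.85 without MBC 3. With immunoglobulin genes set aside, it was the 7th largest increase of 11344 genes, where Xbp1 was the 68th and Ern1 the 106th. Creb3l2 and Ern1 were among these genes only through their PC values.

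Its tested relatives were less abundant in PCs, while Creb3 stood above Creb3l2 in each MBC. Creb3 stood at 1.21, 1.25 and 5.61 scaled TPM in MBCs and 8.56 to 27.7 in PCs, and Creb3l1 at 0, 0 and 0.0536 in MBCs and 1.76 to 7.2 in PCs. Both passed, Creb3 at 2.31 (SE 0.62, limma adjusted p = 0.0492) and Creb3l1 at 2.41 (SE 0.51, limma adjusted p = 0.0181). Creb3l1 was at most 0.11 TPM as deposited in MBCs, so it entered the test through PCs alone. Creb3l3 and Creb3l4 were listed at 0 throughout. Of all 7 listed paralogs of the members, 4 were tested, 3 rose (Creb3, Creb3l1 and Trib1) and none fell, with a median of 2.36. Of all genes tested, 6.41% rose. Without MBC 3, Creb3 differed by 2.77 and Creb3l1 by 2.31, and both passed (limma adjusted p of 0.0130 and 0.0235), as did Trib1 (0.0039). On leaving out each library in turn, the count of 3 ranged from 1 to 3. With TPM left unscaled 2 rose (4.10% of all genes tested did) and 1 was called lower (26.1%).

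In the PERK branch the sensor showed no detectable difference, while Atf4 and Ddit3 rose and Ppp1r15a and Trib3 did not pass or could not be tested. Eif2ak3 (ENSMUSG00000031668, chr6:70844515-70905245, + strand) stood at 19.2, 30.6 and 19.4 scaled TPM in MBCs and at 24.1, 28.7, 35.2 and 21.5 in PCs. The populations overlapped, with only PC 3 above every MBC. The log2 difference was 0.24 (SE 0.37, limma adjusted p = 0.734), and 0.14 without MBC 3 (adjusted p = 0.816 by limma). Its sign turned to -1.03 (limma adjusted p = 0.0643) with TPM left unscaled, where the median of all genes was -0.91. At least 950 reads were estimated behind each value. The other 3 kinases of eIF2α had differences of -0.72 (Eif2ak1), -0.01 (Eif2ak2) and -1.17 (Eif2ak4), and none passed (limma adjusted p of 0.391, 0.993 and 0.299). Among the MBCs, all 4 kinases were highest in MBC 2, at 30.2 (Eif2ak1), 14.9 (Eif2ak2), 30.6 (Eif2ak3) and 21.9 (Eif2ak4) scaled TPM. MBC 2 also held the erythroid transcripts given above, and a link was not tested.

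Atf4 (ENSMUSG00000042406, chr15:80255184-80257541, + strand) is the factor whose translation rises when eIF2α is phosphorylated. It stood at 9.40, 6.67 and 44.4 scaled TPM in MBCs and at 115, 103, 72 and 98.2 in PCs. MBC 3 was well above MBCs 1 and 2 and below every PC. The log2 difference was 2.65 (SE 0.58, limma adjusted p = 0.0201), and it was 3.42 without MBC 3 (adjusted p = 5.8e-04 by limma). The call was lost without MBC 1 (limma adjusted p = 0.0693), MBC 2 (0.0608), PC 1 (0.0610), PC 2 (0.0617) or PC 4 (0.0601). Its closest genes over the 7 libraries were Tssc4 (Pearson r 0.997), Twsg1, Cyb5a, Ndufa13 and Ubb.

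Ddit3 (ENSMUSG00000025408, chr10:127290774-127296288, + strand) encodes CHOP, a factor linked to cell death under lasting stress. It stood at 0.461, 0.512 and 5.38 scaled TPM in MBCs and at 24.1, 12.6, 16.3 and 6.58 in PCs. MBC 3 came close to PC 4, and MBCs 1 and 2 rested on about 3.55 and 3.54 estimated reads, near the floor of 3. The log2 difference was 2.59 (SE 0.68, limma adjusted p = 0.0469), and 3.20 without MBC 3 (adjusted p = 0.0077 by limma), while leaving out any other single library ended the call, with limma adjusted p of 0.0666 to 0.125.

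Ppp1r15a (ENSMUSG00000040435, chr7:45522916-45526268, - strand) encodes GADD34, which brings a phosphatase to eIF2α and so reverses the action of PERK. It stood at 1.11, 4.53 and 9.07 scaled TPM in MBCs and at 49.7, 16.2, 14.3 and 13.9 in PCs. PC 1 was far above the other PCs, and all PCs were above all MBCs. The log2 difference was 2.11 (SE 0.67, limma adjusted p = 0.0879), and 2.58 without MBC 3, which passed (limma adjusted p = 0.0275). Its constitutive counterpart Ppp1r15b differed by 0.46 (SE 0.40, limma adjusted p = 0.530), with 15.9, 43.5 and 31.6 scaled TPM in MBCs and 35.4 to 46.7 in PCs.

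Trib3 (ENSMUSG00000032715, chr2:152337422-152344032, - strand), a pseudokinase induced by ATF4 and CHOP, was too low to be tested. It was listed at 0, 0 and 0.117 scaled TPM in MBCs and at 0.645, 0.372, 0.148 and 0.321 in PCs. The values stem from an estimated 5.02 reads in MBC 3 and 11, 6.82, 2.04 and 6.87 in PCs 1 to 4, so that PC 3 was below the floor. When genes of any level were tested, its difference was 0.39 (limma adjusted p = 0.238). The paralog Trib1 was far higher in PCs, at 99.7, 35.2, 53.8 and 40.2 scaled TPM, against 3.91, 0 and 1.75 in MBCs, a difference of 4.49 (SE 0.62, limma adjusted p = 0.0017). Trib2 had the opposite sign without passing, -1.60 (SE 0.62, limma adjusted p = 0.154), with 10.1 to 51.6 scaled TPM in MBCs and 3.41 to 8.69 in PCs.

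Of the 13 listed PERK-ATF4 targets, 7 were tested and 3 rose: Chac1, Atf5 and Asns. Of all genes tested, 6.41% did. The median over the 7 was 1.81. Chac1, a glutathione-degrading enzyme with CARE in its promoter, had the largest difference, 3.43 (SE 0.58, limma adjusted p = 0.0056). It stood at 0, 0.202 and 0.473 scaled TPM in MBCs and at 17.0, 7.22, 23.7 and 6.89 in PCs. With at most 0.97 TPM as deposited in MBCs, Chac1 entered the test and the median of 1.81 through PCs alone. Atf5 and Asns held no CARE in the promoter window searched. Asns, asparagine synthetase, was at 0.779, 9.33 and 9.39 scaled TPM in MBCs and 20 to 37.7 in PCs, and its difference of 2.43 (SE 0.65) was close to the threshold (limma adjusted p = 0.0491). Psat1, an enzyme of serine synthesis, had the smallest, 0.17 (SE 0.53, limma adjusted p = 0.875), and its MBC values of 11.5, 45.1 and 59.3 scaled TPM spanned those of the PCs. Without MBC 3, 5 of the 7 rose, where 15.1% of all genes tested did. Nupr1 and Vldlr were listed at 0 in all libraries, and Atf3 in all but MBC 3. In the 12 listed genes of the eIF2 arm (kinases, eIF2, its exchange factor eIF2B and Ppp1r15b), none passed and the median was 0.39. With TPM left unscaled 3 of the 12 were called lower, against the same 26.1%. The largest difference was that of Eif2b2, 1.31 (SE 0.51, limma adjusted p = 0.15), and the smallest that of Eif2ak4 given above. Without MBC 3, Eif2b2 and Eif2s1 passed (limma adjusted p of 0.0436 and 0.0383).

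**Figure D2:**
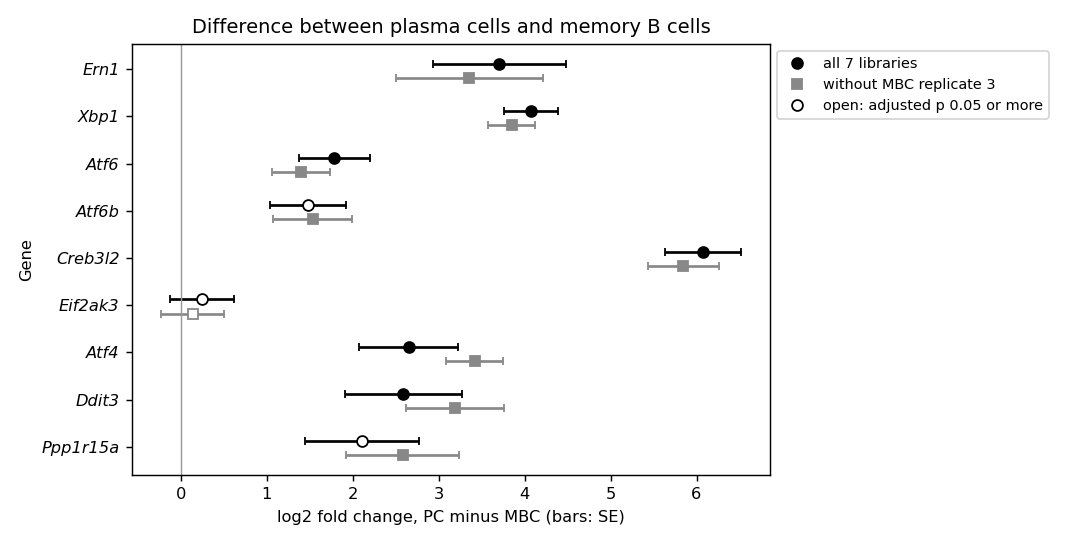
Difference between PCs and MBCs for the 9 tested genes, as log2 fold change with its SE, for all 7 libraries and without MBC 3, with filled points for an adjusted p under 0.05. Creb3l2 (6.08), Xbp1 (4.07) and Ern1 (3.71) lie farthest to the right, Eif2ak3 (0.24) lies by 0, and Atf6b and Ppp1r15a are filled only without MBC 3.

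The branches were compared within each library. The IRE1 sensor gained on the other sensors. Of the summed TPM of Ern1, Atf6 and Eif2ak3, Ern1 made up 16.3, 0 and 2.81% in MBCs 1 to 3 and 34.9, 24.3, 30.6 and 21.4% in PCs 1 to 4. Eif2ak3 made up 33.3, 63.4 and 64.7% in MBCs and 15, 24.5, 25.9 and 23.2% in PCs. The Atf6 share moved less, from 50.4, 36.6 and 32.5% in MBCs to 50.1, 51.3, 43.5 and 55.4% in PCs, and overlapped between the populations. Eif2ak3 was thus the main sensor transcript in MBCs 2 and 3, while Atf6 was the largest share in MBC 1 and in each PC.

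**Figure D3:**
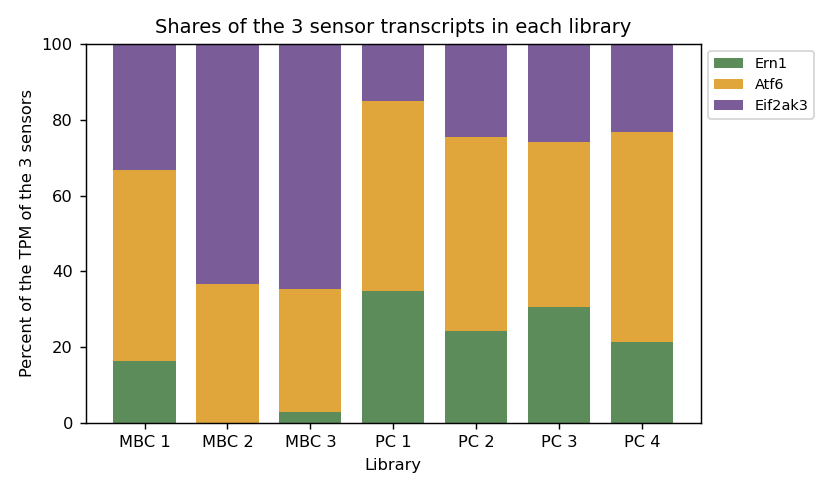
Share of each sensor transcript in the summed TPM of Ern1, Atf6 and Eif2ak3 (vertical axis, percent) in each of the 7 libraries. The Ern1 part is 21.4 to 34.9% in PCs and at most 16.3% in MBCs, and the Eif2ak3 part shrinks to 15 to 25.9% in PCs.

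The log2 ratio of Ern1 to Eif2ak3 was -0.96, -4.98 and -3.47 in MBCs and 1.18, -0.01, 0.24 and -0.11 in PCs. It was higher in PCs by 3.46, with no overlap (exact two-sided permutation test, p = 0.0286, adjusted p = 0.0476 over 5 ratios). This is the smallest p that 3 against 4 libraries allow. The ratio of Ern1 to Atf6 was higher by 1.92 and that of Atf6 to Eif2ak3 by 1.54, each higher in 4 of 4 PCs than in any MBC (exact permutation p = 0.0286, adjusted p = 0.0476 for both). On the log2 scale the ratio of Ern1 to Eif2ak3 is the sum of these ratios, so it is not a separate result. The adjustment over 5 ratios nevertheless counted it as separate, which lowers the adjusted p. The value of 0.0476 is therefore not taken as passing 0.05. For the factors, the ratio of Xbp1 to Atf4 was 2.51, 2.89 and -0.30 in MBCs and 2.70, 3.33, 3.38 and 3.09 in PCs. It overlapped and was higher in PCs by 1.42 (exact permutation p = 0.0571, adjusted p = 0.0714), and by 0.43 without MBC 3. The ratio of Atf6 to Atf6b differed by 0.31 (exact permutation p = 0.6), with -0.13 when MBC 3 was left out. The Ern1 to Eif2ak3 difference was 4.48 without MBC 1 and 2.52 without MBC 2, and that of Ern1 to Atf6 was 1.18 without MBC 2, since Ern1 was listed at 0 there. Without MBC 3 these were 3.21 and 1.96, and Atf6 to Eif2ak3 differed by 1.26. With a pseudocount of 0.1 in place of 1 the difference was 4.88 for Ern1 to Eif2ak3 and 3.29 for Ern1 to Atf6.

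**Figure D4:**
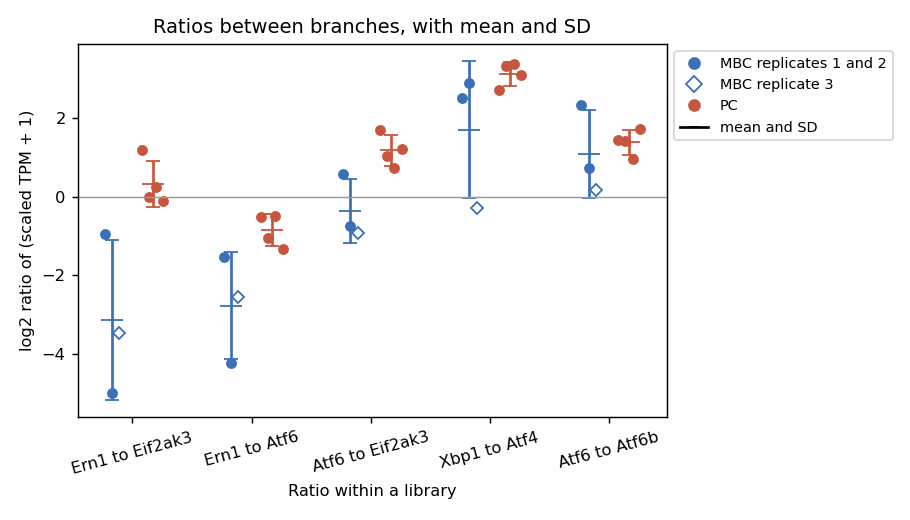
The 5 log2 ratios between genes of the branches, of scaled TPM + 1 within a library, with 1 point per library and the mean and SD of each population. The populations are apart for Ern1 to Eif2ak3, Ern1 to Atf6 and Atf6 to Eif2ak3, and overlap for Xbp1 to Atf4 and Atf6 to Atf6b.

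Within each population the order of levels differed. In PCs the mean scaled TPM was 848 for Xbp1, 97.0 for Atf4, 88.6 for Creb3l2, 62.7 for Atf6, 36.4 for Ern1, 27.4 for Eif2ak3, 24.0 for Atf6b, 23.5 for Ppp1r15a, 14.9 for Ddit3 and 0.371 for Trib3. In MBCs Xbp1 led as well, with 50.1, followed by Eif2ak3 at 23.1, Atf4 at 20.2, Atf6 at 18.9, Atf6b at 7.96 and Ppp1r15a at 4.91, with Ern1, Ddit3, Creb3l2 and Trib3 below. Neighbours in these orders overlapped in their libraries, except for Xbp1 and the gene after it in both populations and for Ddit3 and Trib3 in PCs. Atf4, lower in the MBC order, did overlap Xbp1, at 44.4 against 35.9 scaled TPM in MBC 3. Creb3l2 thus stood at place 3 in PCs and 9 in MBCs, and Eif2ak3 at 6 and 2.

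The order of the libraries within a population differed between genes, though PC 1 and PC 4 often stood at the ends. PC 1 was the highest PC for 7 of the 10 genes and the lowest for Xbp1, and PC 4 was the lowest for 7. With TPM left unscaled these counts were 6 and 6. MBC 3 was the highest MBC for Atf4, Ddit3, Trib3 and Ppp1r15a of the PERK branch and the lowest for Xbp1 and Atf6. The same library held the highest sums of the germinal center and proliferation markers given above.

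**Figure D5:**
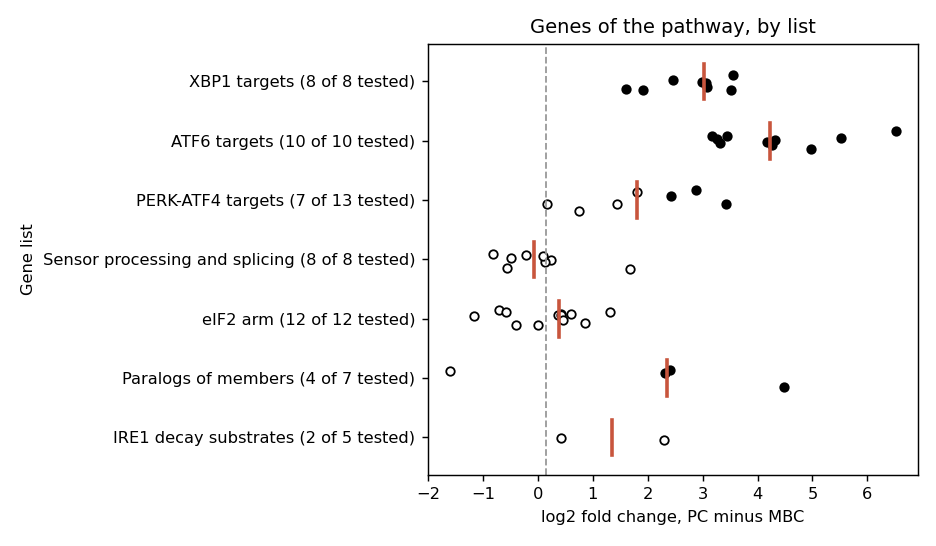
Difference between PCs and MBCs (log2 fold change, horizontal axis) of each tested gene in 7 lists of the pathway, 1 point per gene, with the median of each list and a dashed line at 0.14, the median of all genes tested. The XBP1 targets (median 3.03), ATF6 targets (4.22) and tested PERK-ATF4 targets (1.81) lie to the right of the line, and the genes for sensor processing and splicing (-0.07) and the eIF2 arm (0.39) spread around it.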

How the data were processed

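RNA was measured in 7 libraries of sorted splenic cells, 3 of MBCs and 4 of PCs, with a Nugen cDNA kit and Illumina sequencing. The authors deposited 1 table of TPM values (the reads of a gene divided by its length and brought to a fixed total in each library). The submitters' processing notes name RSEM 1.3.0, STAR 2.5.2a, DESeq2 1.18.1 and GRCm38, without their roles, and the annotation release is not given in the sources used here. Symbols were matched by Ensembl ID to a GENCODE annotation of GRCm38 (48349 of 48795 genes). TPM assigns reads of gene copies and overlapping genes by model, so that such genes are uncertain.

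Libraries were put on a common scale by median-ratio factors taken from the 9305 genes that were above 0 in each of them (factors 1.48 to 2.05 in MBCs, 0.636 to 0.813 in PCs). Genes had to reach 1 TPM, as deposited, in 3 or more libraries, which left 11573. The PCs alone or the MBCs alone could meet this, so some genes entered the test through a single population. A gene under 1 TPM in any of the 3 MBCs needed PC values to be tested, among them Ern1, Ddit3, Creb3l2, Creld2 and Trib1. Their values, as log2(scaled TPM + 1), went into limma (version 3.58.1, R 4.3.3) with the 7 libraries, no covariate, a mean-variance trend in eBayes and Benjamini-Hochberg adjustment. Ratios within a library were tested over all 35 assignments of 3 of the 7 libraries. Nothing states that libraries came from separate mice, so p-values measure the spread between these samples, which may be technical. At least 99.3% of genes above 0 differed between any pair of libraries.

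TPM holds no read totals. Depth was estimated, by a method chosen after the data were seen, from the steps between low values of genes with a single transcript: 1 TPM of a 1 kb transcript was worth 6.31 to 11.6 reads in MBCs and 9.42 to 16.4 in PCs, and 74.7 to 82.6% of such values lay within 0.15 of whole reads, against 30% for evenly spread values. Read numbers in the text rest on this estimate and on the longest coding transcript. The floor was 3 reads and covers counting error only.

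The members, gene lists and tests were chosen with earlier results of these data known. Named genes are the 10 members, the tested genes with the largest and smallest difference of each list, a few fixed by name (Dnajb9, Hspa5, Asns, Bloc1s1, Ern2, Ppp1r15b), and the 5 genes outside the members and the immunoglobulin genes with the highest Pearson r to Xbp1, Ern1 and Atf4. Creb3, Creb3l1, Creb3l3, Creb3l4, Atf5, Eif2s1, the other eIF2 kinases and the genes listed at 0 were named after their values were seen. Ms4a1 and Pax5 were also named after their values were seen, and the summed B cell marker list is not reported here.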

Additional observations from a re-analysis of the deposited data

Results flagged for a closer look

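A single value stood far from the rest of its group. Ppp1r15a reached 49.7 scaled TPM in PC 1, where the other PCs held 13.9 to 16.2, and the gap exceeded Dixon's critical value for 4 libraries. In all, the PC values of 33 genes or ratios were examined in this way, of which 1.65 would be expected to stand out by chance at 1 in 20. PC 1 was also the highest PC for 7 of the 10 genes.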

How the results depend on the processing

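The count of 6 genes higher in PCs was 3 with TPM as deposited, 2 with no filter on low values and 3 with the replicate number as a block, and it ranged from 2 to 8 on leaving out each library. All 8 XBP1 targets rose in the main analysis, 5 with TPM as deposited and 6 to 8 on leaving out each library. The 3 PERK-ATF4 targets became 1 with either replicate block and 2 to 5 on leaving out each library. The ratio of Atf6 to Atf6b reversed to -0.25 within the prefix that most libraries share and ranged from -0.13 to 0.93 on leaving out each library. The Eif2ak3 difference reversed to -1.03 with TPM as deposited. The numbers of all genes higher and lower, 742 and 248, became 474 and 3026 with TPM as deposited, 442 and 124 with no filter, 675 and 460 with quantile normalization, 390 and 60 with the replicate number as a block, 434 and 83 with the title code as a block, 1014 and 448 within the shared prefix, and 456 to 1626 and 93 to 886 on leaving out each library, the largest of each without MBC 3. Same-numbered MBCs and PCs correlated in their deviations from the group means at 0.109, -0.04 and -0.08, and the main fit did not pair the libraries by number. MBC 1 and PC 1, MBC 2 and PC 3, and MBC 3 and PC 4 share a title code, whose meaning the labels do not give. These pairs correlated at 0.109, -0.004 and 0.222, against -0.176 to 0.152 for pairs that share no code. So few correlations cannot decide whether the codes pair the libraries, and the main fit did not pair them by code either. With the title code as a replicate block 4 of the 9 genes passed, and Atf6 (limma adjusted p = 0.0722) and Ddit3 (0.158) did not. The fits with fewer libraries or with a block have fewer degrees of freedom, and the cause of the other changes was not tested. Depth limits Trib3 and, in MBCs 1 and 2, Ddit3.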
